A study of Homo sapiens with 2 samples.

Results

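The ferritin, iron and NRF2 antioxidant genes described here are 10 named genes: FTL, FTH1, TFRC, HMOX1, NQO1, GCLM, TXNRD1, SRXN1, SLC7A11 and TXN. They were chosen by symbol, with earlier results of these data known, and each symbol was matched to an Ensembl identifier of the deposited gene list. All 10 were found among the 30796 genes of that list, and all 10 had UMIs in both lines. The data are single-cell 3′ RNA counts of MDAMB468 and CAL51, established human breast cancer lines that the labels describe as triple negative, a name for tumours without oestrogen receptor, progesterone receptor or amplified HER2. Each line was captured once with Drop-seq, which encloses a cell and a primer-coated bead in an oil droplet; the primers tag each captured RNA with a barcode for the cell and a unique molecular identifier (UMI) for the molecule. The labels name no treatment, time point or genetic change for either line. What the comparison can answer is therefore how much of each transcript the cells of these 2 libraries held, and how it varied from cell to cell.

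Ferritin is the shell in which cells store iron, built from a light chain (FTL) and a heavy chain (FTH1), and the heavy chain carries the ferroxidase activity that oxidises iron for storage. When iron is scarce, the iron regulatory proteins bind a hairpin called the iron-responsive element, which blocks translation of both ferritin messages from their 5′ UTR and protects the message of the transferrin receptor (TFRC) from decay through its 3′ UTR. NRF2 (gene NFE2L2) is a transcription factor that KEAP1 keeps low by directing its degradation. When electrophiles or oxidants disable KEAP1, NRF2 binds antioxidant response elements and raises genes of quinone detoxification, glutathione and thioredoxin, and also both ferritin chains. BACH1 is a repressor that competes with NRF2 at such elements, most of all at HMOX1.

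The iron-responsive elements of FTL, FTH1 and TFRC are shown first. GENCODE release 29 transcripts were searched on the transcript strand for the 17-base pattern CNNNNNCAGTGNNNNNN, in which the bases on either side of the 6-base loop had to form 5 stem pairs (G with U allowed). A match was found in 291 of 19702 protein-coding genes (1.48%). FTL and FTH1 each held 1 match, in the 5′ UTR, and TFRC held 4, in the 3′ UTR. Matches were listed by gene only for these 3 members, so whether another member holds one is not given. Each line gives 29 bases of GRCh38, 5′ to 3′ on the transcript strand, with the loop in capitals.
FTL: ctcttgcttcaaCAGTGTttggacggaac
FTH1: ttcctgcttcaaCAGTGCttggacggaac
TFRC site 1: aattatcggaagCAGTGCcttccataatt
TFRC site 2: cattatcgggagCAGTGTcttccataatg
TFRC site 3: ctgtatcggagaCAGTGAtctccatatgt
TFRC site 4: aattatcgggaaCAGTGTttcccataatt
The FTL site lies at chr19:48965335-48965363 (plus strand) and the FTH1 site at chr11:61967574-61967602 (minus strand). The TFRC sites, all on the minus strand, lie at chr3:196050979-196051007, chr3:196050575-196050603, chr3:196050510-196050538 and chr3:196050463-196050491. A count of transcripts does not read the translation that the 5′ elements control.

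RefSeq promoter windows (GRCh38.p14, 250 bases before to 50 after each start) were searched on both strands for TGACNNNGCA, the core letters of an antioxidant response element. Windows were present for 7 members in 8 entries (FTL, TFRC, NQO1, GCLM, SRXN1, TXN and 2 starts of TXNRD1), while FTH1, HMOX1 and SLC7A11 had none in the table. The letters were present in 1118 of all 35116 windows (3.18%), and in those of GCLM and TXNRD1. Both matches lay on the strand opposite the gene and are written along that strand with the motif in capitals.
GCLM: agacaaTGACTAAGCAgaaatc
TXNRD1: tcagaaTGACAAAGCAgaaatc
The GCLM match lies at chr1:93909450-93909471, and the end of its motif farther upstream is at position -35 from the start in the RefSeq table, which differs from the GENCODE gene end given further on. The TXNRD1 match lies at chr12:104286923-104286944, and the end of its motif farther upstream is at position -103 from the second TXNRD1 start of that table. Elements outside these windows were not searched.

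The MDAMB468 library held 306 barcodes with 5501900 UMIs (median 10016.5 per barcode), and the CAL51 library, as used here, held 1346 barcodes with 16223444 UMIs (median 8635). Among the deposited barcodes, 31 sequences occurred under both line names. Their CAL51 copies, with 135240 UMIs, were left out of CAL51 and are described in the closing section. A further 64 MDAMB468 and 7 CAL51 barcodes were 1 base away from a far deeper barcode (at least 5 times the UMIs) under the same line name. These satellite barcodes stay in the summed counts and were left out of values per cell, which leaves 242 and 1339 cells. With the shared barcodes kept in CAL51, FTL differed by -4.58 and FTH1 by 0.12 on the log2 scale used below. Without satellites, FTL differed by -4.60 and FTH1 by 0.11. With 1 library per line there is no replicate, no test was run, and every interval is a 95% interval that covers counting error only.

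The markers matched the label of an epithelial cancer without hormone receptors in most respects. The 5 epithelial markers (KRT8, KRT18, KRT19, EPCAM and CDH1) were all detected in both lines and summed to 4152 CPM (UMIs scaled to a total of 1000000 per line) in MDAMB468 and 2788 CPM in CAL51, although CDH1 had only 7 UMIs in CAL51. ESR1, the oestrogen receptor, had 3 and 0 UMIs, PGR, the progesterone receptor, had 1 and 1, and ERBB2, the HER2 gene, had 39 and 262. Macrophages and red cell precursors are rich in ferritin and haem genes. The 5 leukocyte and macrophage markers in the files summed to 6 UMIs in MDAMB468, with 3 of the 5 at 0, and to 12 UMIs in CAL51, with 1 at 0. The single erythroid marker in the files had 0 and 2 UMIs, and 3 endothelial markers had 6 and 6.

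Ferritin RNA was abundant in both lines, but the chains were not balanced in the same way. The heavy chain was the fourth most abundant gene in each line, at similar levels. The light chain stood near it in CAL51 and was 24.2-fold lower in MDAMB468. Because the chosen genes include those seen to differ, these differences between lines are a description. A UMI counts 1 molecule from its 3′ end whatever the transcript's length, so CPM values can be set beside each other between genes without division by length, apart from differences in how well each 3′ end is captured.

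FTH1 (ENSG00000167996, chromosome 11, 61959718 to 61967660, minus strand) had 31544 UMIs in MDAMB468 and 85162 in CAL51. These are levels of 5733 CPM (interval 5670 to 5797) and 5249 CPM (interval 5214 to 5285), a ratio of 1.09 in favour of MDAMB468 (interval 1.08 to 1.11). On the log2 scale of CPM + 1, MDAMB468 minus CAL51, the difference was 0.13. Its sign followed the scaling: TMM factors gave -0.0050 and the median of ratios gave -0.0175, so no direction is given for FTH1.

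FTL (ENSG00000087086, chromosome 19, 48965301 to 48966878, plus strand) had 955 UMIs in MDAMB468 and 68081 in CAL51. Those counts gave 173.6 CPM (interval 162.7 to 184.9) in the former and 4196 CPM (interval 4165 to 4228) in the latter. FTL ranked 959 among all genes in MDAMB468 and 7 in CAL51. The ratio was 24.2-fold in favour of CAL51 (interval 22.7 to 25.8), and the log2 difference was -4.59.

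The FTL difference was close to the same at every depth. Among barcodes of 2500 to 5000 UMIs it was 25.7-fold (interval 19.8 to 34.0), and among those of 5000 to 10000 it was 23.9-fold (interval 19.1 to 30.2). It was 23.2-fold (interval 19.97 to 27.1) between 10000 and 20000 UMIs and 23.7-fold (interval 21.9 to 25.6) above 20000. All 4 intervals overlap. Over 13 alternative settings the log2 difference lay between -4.73 and -4.49.

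The FTL counts in MDAMB468 lay far above those of GSTP1 in that library, a gene picked out after values were seen. Whether RNA from CAL51 cells contributed to either count was not tested. GSTP1, a glutathione transferase among the most abundant CAL51 genes at 5263 CPM, had 9 UMIs in MDAMB468 (1.64 CPM). Of 242 MDAMB468 cells, 9 had a GSTP1 UMI (3.72%, interval 1.71% to 6.94%), and 188 had an FTL UMI (77.7%, interval 71.9% to 82.8%). All 1339 CAL51 cells had an FTL UMI. The median depth was 14828.5 UMIs in these MDAMB468 cells and 8660 in these CAL51 cells.

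**Figure D1:**
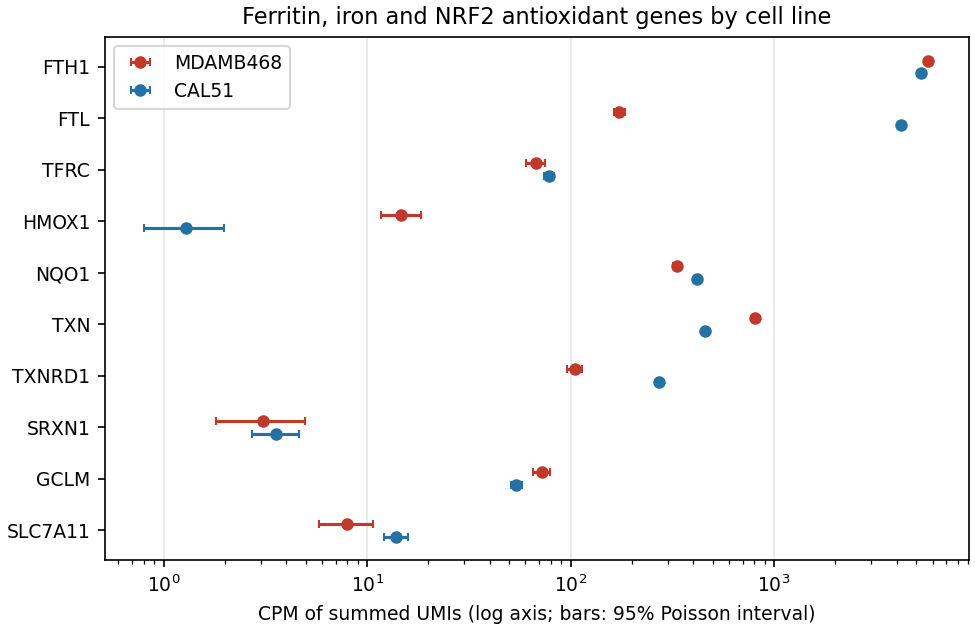
Level of each of the 10 genes in CPM of summed UMIs (log axis) in the MDAMB468 library (red) and the CAL51 library (blue), with 95% Poisson intervals that cover counting error only. FTL (173.6 against 4196 CPM) and HMOX1 (14.7 against 1.29 CPM) lie furthest apart, in opposite directions, while FTH1, TFRC and SRXN1 nearly coincide.

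The share of the heavy chain among all ferritin UMIs needs no scaling between libraries. It was 97.1% in MDAMB468 (exact binomial interval 96.9% to 97.2%) and 55.6% in CAL51 (interval 55.3% to 55.8%). The heavy chain thus had 33.03 UMIs for each light chain UMI in MDAMB468, and 1.25 in CAL51. The summed level of both chains was 5907 CPM in MDAMB468 and 9446 CPM in CAL51.

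Both ferritin genes have processed pseudogenes whose sequence is close to the parent, and the rule for reads that fit several genes was not given in the sources used here. FTL had 5 pseudogenes in the files, which held 46 UMIs in MDAMB468 and 1519 in CAL51, most of them in FTLP3 (43 and 1465). By these counts the pseudogenes leaned toward CAL51 as FTL did, though less strongly. They came to 4.82% of the parent's own UMIs in MDAMB468 and 2.23% in CAL51. The 17 FTH1 pseudogenes held 1024 and 1325 UMIs, which is 3.25% and 1.56% of FTH1. FTH1P8 was the largest of them, with 468 and 609 UMIs. Adding pseudogene UMIs to the parents moved the FTH1 log2 difference from 0.13 to 0.15.

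The genes around FTL were looked at after its value had been seen. The 20 nearest protein-coding genes with at least 20 UMIs, 10 on each side, span from -346 to 397 kb around its start. Their log2 differences ran from -2.19 (MAMSTR, 2 and 85 UMIs) to 0.85 (CA11), with a median of -0.38 beside -0.13 over all genes tested. None of the 20 was at least 2-fold higher in MDAMB468 and 7 were at least 2-fold higher in CAL51: SPHK2, DBP, MAMSTR, NUCB1, BAX, GYS1 and TEAD2. The shares over all genes tested were 18.9% and 22.4%. BAX, an apoptosis effector 10.5 kb before FTL, had 207 and 1576 UMIs (log2 difference -1.35). GYS1, muscle glycogen synthase 28.0 kb after it, had 34 and 319 (-1.53), and the helicase gene RUVBL2 beside it differed by -0.19. FTL, at -4.59, lay below all 20.

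**Figure D2:**
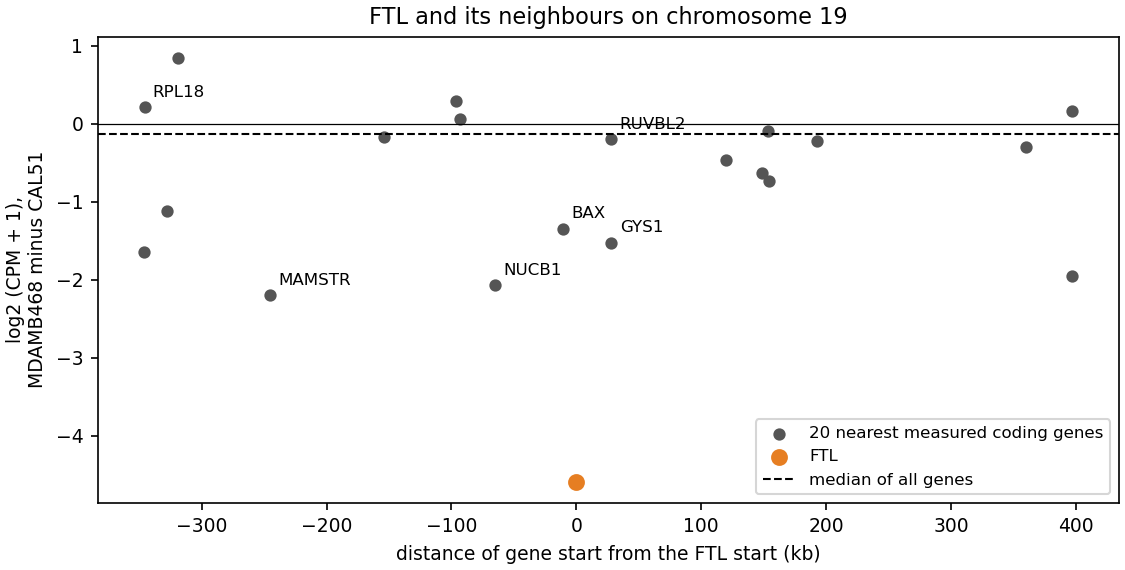
Log2 difference of CPM + 1 (MDAMB468 minus CAL51) of FTL (orange) and its 20 nearest measured protein-coding genes (grey), by distance of each gene start from the FTL start in kb. The dashed line is the median of all genes tested (-0.13), and FTL at -4.59 lies below every neighbour, the lowest of which is MAMSTR at -2.19.

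TFRC (ENSG00000072274, chromosome 3, 196027183 to 196082189, minus strand), which brings transferrin-bound iron into the cell, had 370 UMIs in MDAMB468 and 1276 in CAL51. Its level was 67.2 CPM (interval 60.6 to 74.5) and 78.7 CPM (interval 74.4 to 83.1), a ratio of 1.17 in favour of CAL51 (interval 1.04 to 1.32). The 2 intervals of the levels touch only at their edges, and the log2 difference of -0.22 turned to 0.28 among barcodes of 2500 to 5000 UMIs. TFRC was therefore close in the 2 libraries, whereas FTL was not.

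HMOX1 (ENSG00000100292, chromosome 22, 35380361 to 35394214, plus strand), the inducible haem oxygenase that frees iron from haem, was the member with the highest difference toward MDAMB468. It had 81 UMIs in MDAMB468 and 21 in CAL51, levels of 14.7 CPM (interval 11.7 to 18.3) and 1.29 CPM (interval 0.801 to 1.98). The ratio was 11.4-fold in favour of MDAMB468 (interval 6.97 to 19.4), with a log2 difference of 2.78. Of the MDAMB468 cells, 55 of 242 had a HMOX1 UMI (22.7%, interval 17.6% to 28.5%), against 20 of 1339 CAL51 cells (1.49%, interval 0.915% to 2.30%).

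The part of free RNA in these HMOX1 counts was not tested. After thinning each cell to 2500 UMIs the HMOX1 shares were 3.66% and 0.340%. The 5 MDAMB468 cells with the most HMOX1 UMIs held 21.3% of them, and the rest were spread over the other cells with a UMI. By depth, HMOX1 had 9 and 1 UMIs in the bin of 2500 to 5000, 1 and 7 in that of 5000 to 10000, 13 and 7 in that of 10000 to 20000, and 58 and 6 above. In the bin of 5000 to 10000 UMIs the ratio was 1.21 with an interval of 0.0269 to 9.45, which does not settle a direction at that depth.

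NQO1 (ENSG00000181019, chromosome 16, 69706996 to 69726951, minus strand) encodes the quinone reductase often used as a readout of NRF2 activity. Its 1828 UMIs in MDAMB468 came to 332 CPM (interval 317 to 348) and its 6778 in CAL51 to 418 CPM (interval 408 to 428). The ratio was 1.26 in favour of CAL51 (interval 1.19 to 1.32), a log2 difference of -0.33. NQO1 was thus abundant in both lines, within 2-fold.

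The thioredoxin pair went in opposite directions. TXN (ENSG00000136810, chromosome 9, 110243811 to 110256640, minus strand), the small protein that reduces disulfides, had 4440 and 7411 UMIs, or 807 CPM (interval 783 to 831) and 457 CPM (interval 446 to 467), in that order of lines. That is a ratio of 1.77 in favour of MDAMB468 (interval 1.70 to 1.83) and a log2 difference of 0.82. TXNRD1 (ENSG00000198431, chromosome 12, 104215779 to 104350305, plus strand), the selenoenzyme that recharges thioredoxin from NADPH, had 576 and 4407 UMIs, or 104.7 CPM (interval 96.3 to 114) and 272 CPM (interval 264 to 280). Its ratio was 2.59 in favour of CAL51 (interval 2.38 to 2.84), a log2 difference of -1.37.

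TXNRD1 moved with depth. Its ratio toward CAL51 was 1.67 and 1.80 in the lower depth bins and 2.82 and 2.94 in the upper bins, so it passed 2-fold only in barcodes above 10000 UMIs. TXN kept ratios of 2.07, 1.97, 1.68 and 1.70 toward MDAMB468 over the same bins. The part that depth or the satellite barcodes play in these bins was not tested. The 5 TXN pseudogenes in the files held 139 and 101 UMIs, 3.13% and 1.36% of the parent.

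SRXN1 (ENSG00000271303, chromosome 20, 646615 to 653370, minus strand), sulfiredoxin, repairs over-oxidised peroxiredoxins. It had 17 and 58 UMIs, or 3.09 CPM (interval 1.80 to 4.95) and 3.58 CPM (interval 2.71 to 4.62), and a difference was not detectable at this depth. GCLM (ENSG00000023909, chromosome 1, 93885205 to 93909456, minus strand), the modifier subunit of the enzyme that starts glutathione synthesis, had 396 and 879 UMIs. Its 72.0 CPM (interval 65.1 to 79.4) in MDAMB468 exceeded the 54.2 CPM (interval 50.7 to 57.9) in CAL51 by 1.33-fold (interval 1.18 to 1.497), a log2 difference of 0.40.

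SLC7A11 (ENSG00000151012, chromosome 4, 138164097 to 138242349, minus strand), the cystine importer that feeds glutathione synthesis, was rare in both. Its 44 and 225 UMIs came to 7.997 CPM (interval 5.81 to 10.7) and 13.9 CPM (interval 12.1 to 15.8), a ratio of 1.73 in favour of CAL51 (interval 1.25 to 2.45). Its log2 difference of -0.72 passed -1 when cells were weighted equally (-1.02) and in the bin of 10000 to 20000 UMIs (-1.72), where MDAMB468 had 3 UMIs.

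In CPM, the order of levels in MDAMB468 was FTH1, TXN, NQO1, FTL, TXNRD1, GCLM, TFRC, HMOX1, SLC7A11 and SRXN1. Only the neighbours GCLM and TFRC had overlapping intervals. In CAL51 the order was FTH1, FTL, TXN, NQO1, TXNRD1, TFRC, GCLM, SLC7A11, SRXN1 and HMOX1, and the intervals of no 2 neighbours overlapped. FTL and HMOX1 changed place most.

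Of the 10 members, 1 was at least 2-fold higher in MDAMB468 (HMOX1), 2 were at least 2-fold higher in CAL51 (FTL and TXNRD1) and 7 lay within 2-fold. Among the 15347 genes with at least 20 UMIs over both lines, 18.9% were at least 2-fold higher in MDAMB468 and 22.4% at least 2-fold higher in CAL51, together 41.3%. The choice of members used this contrast, so nothing is read from their count. Their median log2 difference was -0.19, beside -0.13 over all genes tested.

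Within CAL51, the ferritin chains varied from cell to cell far more than counting gives, and varied together. For these values every cell was thinned to 2500 UMIs, so depth is equal. Spread is given as the Fano factor, the variance over the mean, which is 1 for pure counting noise. FTH1 averaged 13.8 UMIs per CAL51 cell (SD 8.60 over cells, Fano factor 5.36), with the 10th percentile of cells at 5.65 and the 90th at 24.4. FTL averaged 10.7 UMIs (SD 6.10, Fano factor 3.47), with the same percentiles at 4.29 and 18.0.

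In MDAMB468, FTH1 averaged 15.8 UMIs per cell (SD 6.47, Fano factor 2.66), with those percentiles at 8.71 and 23.5. FTL averaged 0.423 UMIs per cell with a Fano factor of 1.18. At the same relative variation a lower mean brings this factor nearer to 1. It therefore cannot be set beside the 3.47 of FTL in CAL51, where the mean was 10.7 UMIs. The range of FTH1 over cells was thus the narrower in MDAMB468 at a similar mean.

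Splitting each cell's UMIs into 2 disjoint draws of 1250 shows how much of a gene's ranking of cells recurs. The correlation between draws was 0.612 for FTH1 and 0.481 for FTL in CAL51, and 0.414 for FTH1 but 0.0636 for FTL in MDAMB468. A low mean lowers this correlation too, so the FTL values of the lines are not compared. NQO1 came next, at 0.215 in CAL51 (mean 1.05, Fano factor 1.67) against 0.0492 in MDAMB468 (mean 0.822, Fano factor 1.13). TXNRD1 reached 0.0742 and 0.0657, and TXN 0.0506 and 0.0317, in CAL51 and MDAMB468. For TFRC, HMOX1, GCLM, SRXN1 and SLC7A11, with means of at most 0.185 UMIs per cell, the Fano factors ran from 0.977 to 1.13. The highest was that of SLC7A11 in CAL51, whose correlation between draws was 0.0507, and HMOX1 in CAL51 had 0.0543. Whether these exceed counting noise was not tested.

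The heavy-chain share also varied between CAL51 cells beyond counting. It averaged 55.2% per cell with an SD of 14.7 percentage points, where binomial counting alone gives 11.3. The median cell stood at 55.3%, the 25th and 75th percentiles at 45.4% and 65.3%, and the 10th and 90th at 36.3% and 74.5%. In MDAMB468 the mean was 97.2% with an SD of 5.00 beside a binomial 4.32, the 10th percentile of cells stood at 90.7%, and the median cell had no FTL UMI left after thinning. The 10th percentile of MDAMB468 cells thus lay above the 90th of CAL51 cells.

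**Figure D3:**
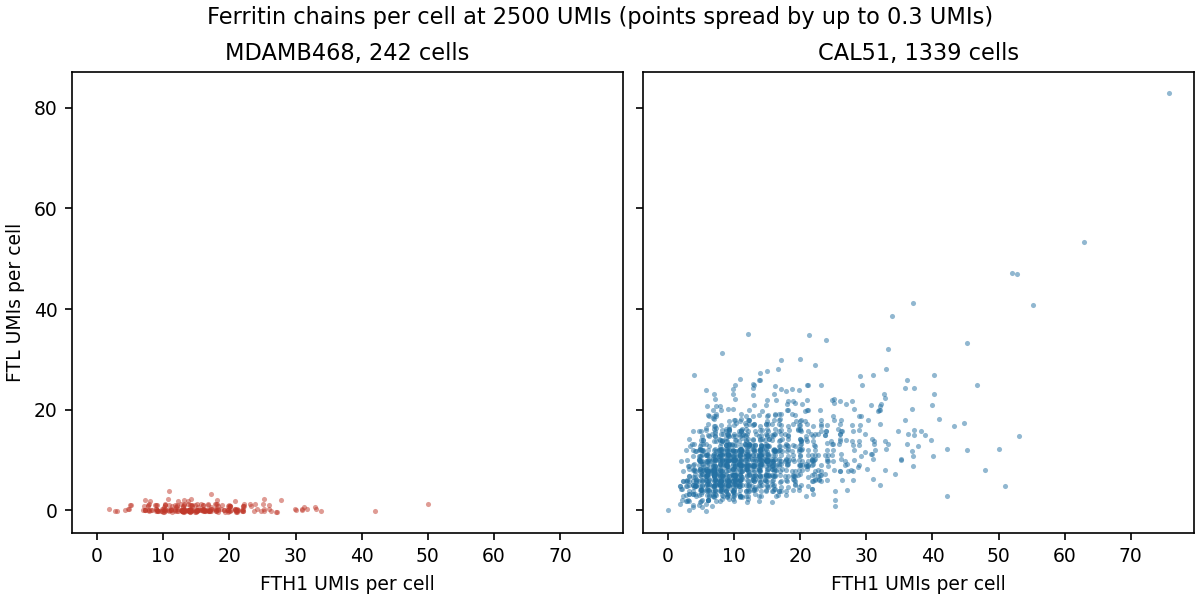
FTL against FTH1 UMIs in each cell thinned to 2500 UMIs, 242 MDAMB468 cells on the left and 1339 CAL51 cells on the right, with points spread by up to 0.3 UMIs for visibility. FTH1 has similar means (15.8 UMIs in MDAMB468, 13.8 in CAL51) and a wider range in CAL51. FTL stays near 0 in MDAMB468 (mean 0.423) and grows with FTH1 in CAL51 (mean 10.7).

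Correlations between members are Pearson's r of square-root counts over the cells of 1 line, averaged over 20 thinnings to 2500 UMIs. The cells of a line share 1 library and 1 culture, and the rule that chose these genes named this correlation, so the values are a description. Over 1339 CAL51 cells, FTL and FTH1 had r = 0.42, and 0.49 over the 1069 cells that reach 5000 UMIs. FTL and NQO1 had 0.23, FTH1 and NQO1 0.14, FTL and TXNRD1 0.11, and FTH1 and TXNRD1 0.10. These were the 5 of 45 pairs above 0.1, while the median pair had 0.029 and the lowest, FTH1 with TFRC, had -0.031. At 5000 UMIs, 10 of the 45 pairs were above 0.1, among them FTH1 with TXN (0.13) and FTL with TXN (0.11), so the number of pairs above 0.1 rests on the depth.

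In MDAMB468, over 242 cells, the 45 pairs ran from -0.051 to 0.064 with a median of 0.0023, and none passed 0.1. That rests on the cells used. Over the 151 cells of up to 20000 UMIs, GCLM with TXNRD1 had 0.135 and HMOX1 with TXNRD1 had 0.128. FTL and FTH1 had r = -0.00050, or 0.065 over 208 cells at 5000 UMIs. FTL, at under 1 UMI per cell there, leaves little to correlate. For FTH1 and NQO1 the value was -0.040, with a mean of 0.822 NQO1 UMIs per cell beside 1.05 in CAL51. Whether r differs between the lines was not tested.

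**Figure D4:**
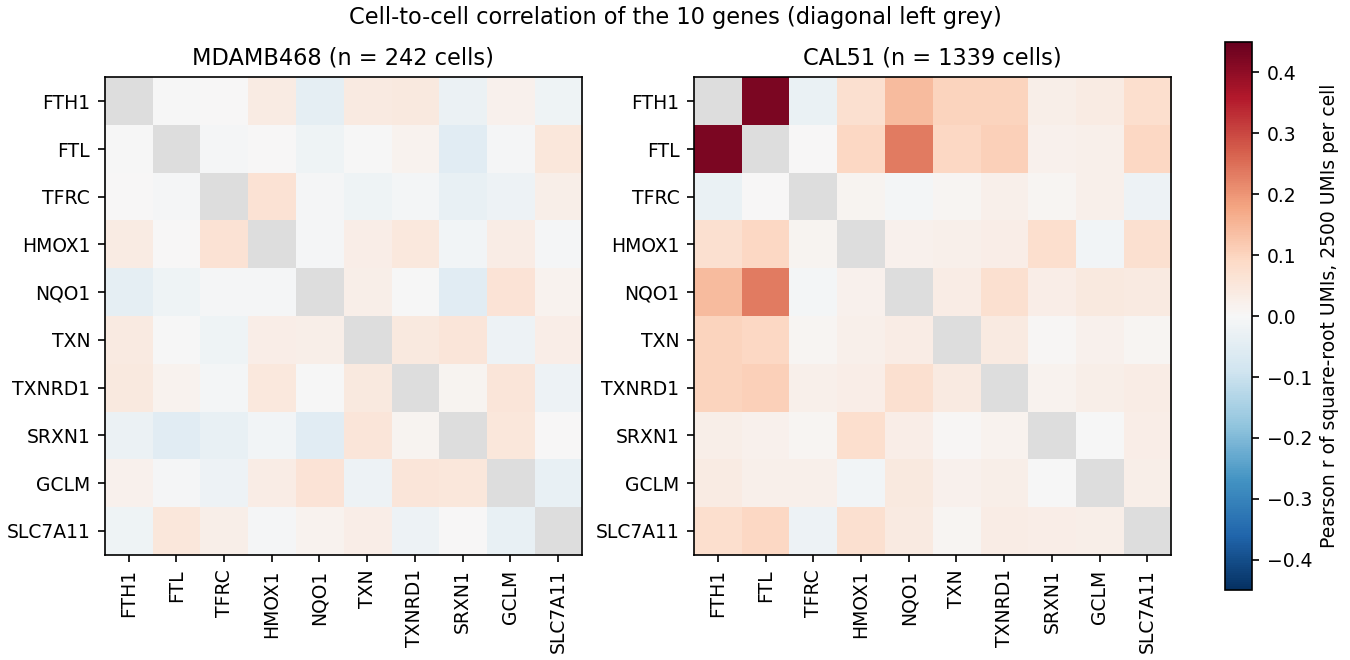
Pearson's r of square-root UMIs between each pair of the 10 genes over 242 MDAMB468 cells (left) and 1339 CAL51 cells (right), every cell thinned to 2500 UMIs; red is positive, blue negative and the diagonal is left grey. In CAL51 the darkest square is FTL with FTH1 (0.42), followed by FTL with NQO1 (0.23), and in MDAMB468 no pair exceeds 0.064.

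Cells were also ordered by FTH1, a view added after the correlations had been seen. In CAL51 the 25% of cells with the lowest FTH1 averaged 5.75 FTH1 UMIs and the 25% with the highest 25.4 (334 cells each). Between these groups of cells FTL went from 8.20 to 14.1 UMIs per cell (1.72-fold), NQO1 from 0.846 to 1.30 (1.54-fold), TXNRD1 from 0.563 to 0.767 (1.36-fold) and TXN from 1.02 to 1.30 (1.27-fold). TFRC went the other way, from 0.203 to 0.159 UMIs, at low counts and with r of only -0.031 to FTH1. In MDAMB468 it did not, with 0.155 and 0.170 UMIs. In the same groups of MDAMB468, of 60 cells each, FTH1 averaged 8.65 and 24.3 UMIs, FTL stayed at 0.402 and 0.404, NQO1 was 0.855 and 0.765, TXNRD1 0.263 and 0.322, and TXN 2.03 and 2.18.

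The genes whose values over cells were most like a member's were ranked by r over all genes with a mean of at least 0.5 UMIs per cell, without mitochondrial and ribosomal protein genes (818 genes in CAL51, 722 in MDAMB468). In CAL51, the 5 most like FTL were FTH1, NQO1, GSTP1 (0.19), the peroxiredoxin PRDX1 (0.18) and EIF1 (0.13). The median gene had r = -0.0031 with FTL. Those most like FTH1 were FTL, GSTP1 (0.31), ASRGL1 (0.25), COX6C (0.25) and EPCAM (0.23).

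NQO1 was most like FTL and FTH1, then SAT1 (0.13), ALDH1A1 (0.090) and IER3 (0.074). TXNRD1 was most like FTL, FTH1, GSTP1 (0.091), PRDX1 (0.084) and ANXA4 (0.078). TXN was most like FTH1 (0.099), FTL (0.093), PRDX1 (0.082), COX6C (0.063) and POMP (0.056). FTL and FTH1 thus led the list of each of these 3 members in CAL51. They rank 7 and 4 by level among all genes there. Counting noise lowers r less for abundant genes, so such a list favours them, and no particular link is read from their place.

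In MDAMB468, FTH1 was most like TMSB4X (0.19), PTMA (0.17), RARRES1 (0.16), TPT1 (0.14) and CHCHD2 (0.14), none of them a member. NQO1 was most like SRP9 (0.11), KRT19 (0.099), EIF3E (0.098), CENPX (0.091) and CHCHD2 (0.091). TXN was most like CALML5 (0.095), KDM1A (0.080), PDCD5 (0.079), S100A2 (0.079) and GCSH (0.076). The lowest r among the genes compared was of like size, at -0.18 for FTH1, -0.13 for NQO1 and -0.083 for TXN. Whether the highest values exceed counting noise over 242 cells was not tested. No member was among the 5 most like any of these 3 genes in MDAMB468. FTL (mean 0.423 UMIs per cell), TXNRD1 (0.291), the rarer members and GSTP1 lay below the limit of 0.5 there. They were not compared, so the genes that led the CAL51 lists, apart from FTH1, could mostly not appear.

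Members were further set against sums of other genes over the same cells. In CAL51, FTH1 had r = 0.26 and FTL r = 0.21 with the summed other NRF2 target genes, a list without the members. NQO1 had 0.10 and TXNRD1 0.12 with that sum. PRDX1 alone held 30277 of the 70232 UMIs of that list in the CAL51 library. How much of these r values rests on PRDX1 rather than on the rest of the list was not tested. FTH1 had 0.18 with the sum of PTGDS and ADAMTS8, which mark some CAL51 cells, where FTL had 0.030. FTH1 had -0.17 with the G2 and M phase genes and -0.12 with the S phase genes, where FTL had -0.062 and -0.066. Both chains had 0.12 with stress genes driven by ATF4, and ribosomal protein genes had 0.20 with FTL and 0.14 with FTH1. Mitochondrial genes, whose share can follow RNA quality, had -0.16 with FTL and -0.048 with FTH1, and their part in the variation of FTL was not tested.

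In MDAMB468, FTH1 had r = -0.18 with the G2 and M phase sum, 0.19 with ribosomal protein genes and 0.070 with the other NRF2 target genes. With that last sum NQO1 had 0.089, near its 0.10 in CAL51, while TXNRD1 had -0.017 and FTL -0.0054. PRDX1 held 3920 of the 17762 UMIs of that list in the MDAMB468 library, a smaller part than in CAL51. FTH1 also had r = -0.31 with the logarithm of a cell's total UMIs, although all cells were thinned to the same depth. Without cells above 20000 UMIs (151 cells left) that value was -0.16. The corresponding value in CAL51 was -0.096. The part of cell depth in the FTH1 variation was not tested.

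The wider pathway was described from 6 lists, chosen like the members with earlier results known. Together they name 167 genes that are not members, of which 151 had at least 20 UMIs. Of these, 33 were at least 2-fold higher in MDAMB468 and 33 at least 2-fold higher in CAL51 (43.7% together), with a median log2 difference of -0.18. Those shares lie near the 41.3% of all genes, so nothing is read from them about the pathway. Over all genes tested, 18.9% were at least 2-fold higher in MDAMB468 and 22.4% in CAL51. The counts of single lists below rest on few genes, and no lean of a list toward a line is read from them.

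**Figure D5:**
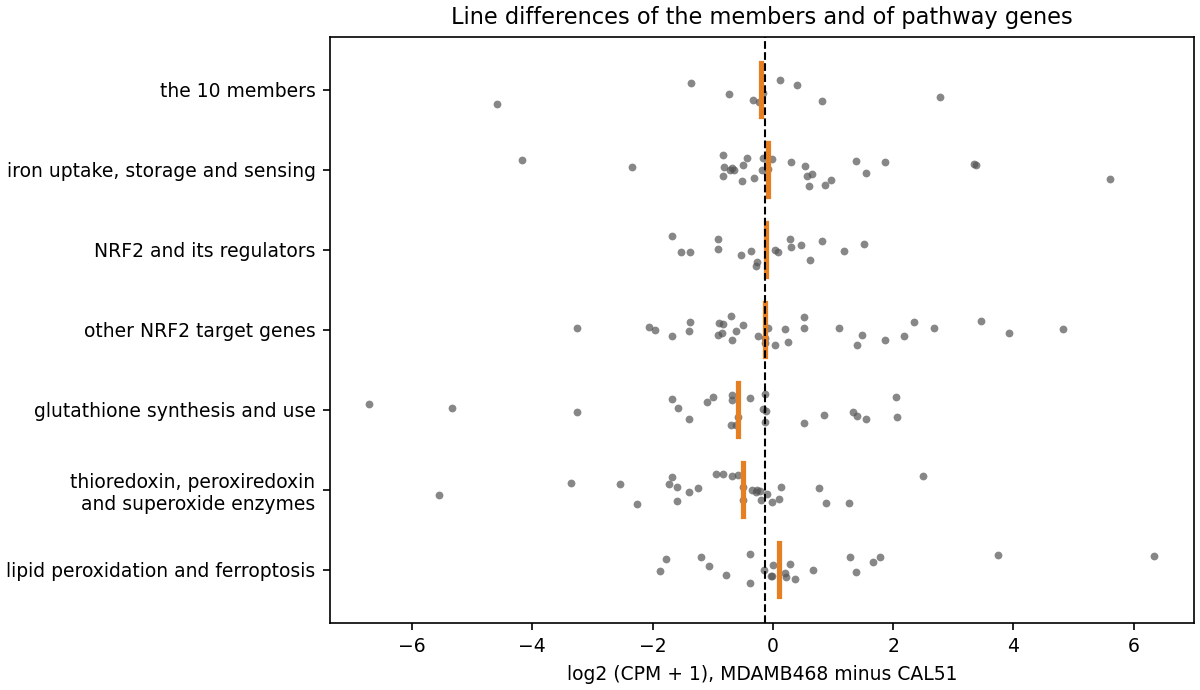
Log2 difference of CPM + 1 (MDAMB468 minus CAL51) of each gene with at least 20 UMIs (grey points) in the 10 members and in 6 pathway lists, with the list median in orange and the median of all genes tested (-0.13) as a dashed line. Every list spans both directions, and the list medians lie between -0.58 (glutathione) and 0.10 (lipid peroxidation and ferroptosis).

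Among genes of iron uptake, storage and sensing, 29 of the 33 in the files had at least 20 UMIs. Of these, 7 were at least 2-fold higher in MDAMB468 and 2 in CAL51 (31.0% together, median log2 difference -0.08). The regulators that read cellular iron lay within 2-fold. IREB2, iron regulatory protein 2, differed by -0.32 on the log2 scale (226 and 833 UMIs), and ACO1, iron regulatory protein 1, was 1.80-fold higher in CAL51 (interval 1.49 to 2.20). NCOA4, the receptor that delivers ferritin to autophagy, was 1.57-fold higher in MDAMB468 (interval 1.42 to 1.73).

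The extremes of the iron list were transporters, haem oxygenase 2 and a siderophore carrier. HMOX2, the constitutive haem oxygenase, had 7 and 644 UMIs, a 31.2-fold ratio toward CAL51 (interval 15.1 to 77.9), the direction opposite to HMOX1. STEAP2, a metalloreductase, had 1 and 81 UMIs (27.5-fold, interval 4.79 to 1098). LCN2, a lipocalin that binds iron-carrying siderophores, had 264 and 0 UMIs. Against a floor of 3 counts in the CAL51 library it was at least 259-fold higher in MDAMB468, and 2 LCN2 UMIs were in the shared barcodes left out. STEAP4 had 52 and 0 UMIs (at least 51.1-fold), and the metal importer SLC39A8 had 61 and 3 (60.0-fold, interval 19.6 to 299).

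The NRF2 message itself was nearly level. NFE2L2 had 692 and 1929 UMIs, 126 CPM in MDAMB468 and 119 CPM in CAL51, a ratio of 1.06 (interval 0.968 to 1.15). KEAP1, its inhibitor, was 1.54-fold higher in MDAMB468 (442 and 845 UMIs, interval 1.37 to 1.73). CUL3, the ubiquitin ligase scaffold that KEAP1 works with, differed by 0.30 on the log2 scale (503 and 1201 UMIs), and BACH1, the repressor of HMOX1, by -0.52 (123 and 528). The NRF2 mRNA level does not read the protein, which KEAP1 controls by degradation.

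Of 18 NRF2 regulators with at least 20 UMIs, 2 were at least 2-fold higher in MDAMB468 and 3 in CAL51 (27.8% together, median log2 difference -0.11). With TMM or the median of ratios, 5 were higher in CAL51. The 2 were the small MAF partners MAFF (73 and 65 UMIs, 3.31-fold, interval 2.34 to 4.70) and MAFK (41 and 44, 2.75-fold, interval 1.75 to 4.30), followed by the KEAP1-binding phosphatase PGAM5 (84 and 134, log2 difference 0.81). The 3 were NFE2L1, a relative of NRF2 (211 and 1651, 2.65-fold, interval 2.30 to 3.08), the coactivator CREBBP (160 and 1391, log2 difference -1.53) and the ubiquitin ligase subunit BTRC (36 and 373, log2 difference -1.67).

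Of 33 other NRF2 target genes with at least 20 UMIs, 10 were at least 2-fold higher in MDAMB468 and 7 in CAL51 (51.5% together, median log2 difference -0.12). ME1, malic enzyme, which makes NADPH, had 209 and 6 UMIs, a 103-fold ratio toward MDAMB468 (interval 46.4 to 283). AKR1C2, an aldo-keto reductase, had 755 and 131 (16.99-fold, interval 14.1 to 20.6), and CBR1, a carbonyl reductase, had 1530 and 394 (11.5-fold, interval 10.2 to 12.8). Toward CAL51, AKR1B1, aldose reductase, had 55 and 1680 UMIs (10.4-fold, interval 7.92 to 13.8), AKR1C3 had 3 and 88 (9.95-fold, interval 3.29 to 49.2) and FECH, ferrochelatase, which puts iron into haem, had 102 and 1213 (4.03-fold, interval 3.29 to 4.99). The AKR1C genes are close paralogs whose reads may have been divided between them, so their values are uncertain.

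Of 25 glutathione genes with at least 20 UMIs, 5 were at least 2-fold higher in MDAMB468 and 8 in CAL51 (52.0% together, median log2 difference -0.58). GCLC, the catalytic partner of GCLM, was 1.47-fold higher in MDAMB468 (88 and 177 UMIs, interval 1.12 to 1.90), the same direction as GCLM. CTH, which makes cysteine from cystathionine, had 5 and 1237 UMIs, an 83.9-fold ratio toward CAL51 (interval 35.9 to 259). The glutathione peroxidases GPX7 and GPX3 had 0 UMIs in MDAMB468 against 1681 and 139 in CAL51, at least 190-fold and at least 15.7-fold higher there. GLRX, glutaredoxin (121 and 73 UMIs, 4.89-fold, interval 3.63 to 6.63), GGT1, a gamma-glutamyltransferase (20 and 2, 29.5-fold, interval 7.16 to 260), and GPX1 (1088 and 1088, 2.95-fold, interval 2.71 to 3.21) were higher in MDAMB468.

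Of 29 thioredoxin, peroxiredoxin and superoxide genes, 2 were at least 2-fold higher in MDAMB468 and 10 in CAL51 (41.4% together, median log2 difference -0.50). The share over all genes tested was 41.3%. MSRB3, a methionine sulfoxide reductase, had 7 and 1716 UMIs (83.1-fold toward CAL51, interval 40.3 to 207), and MSRA had 17 and 368 (7.34-fold, interval 4.52 to 12.7). TXNIP, which binds and inhibits thioredoxin, had 0 and 150 UMIs, at least 16.96-fold higher in CAL51. CAT, catalase, had 826 and 417 UMIs (5.84-fold toward MDAMB468, interval 5.19 to 6.59), SELENOW 722 and 876 (2.43-fold, interval 2.20 to 2.69) and PRDX5 2906 and 4619 (1.86-fold, interval 1.77 to 1.94).

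Ferroptosis is a form of cell death driven by iron and peroxidised lipids, which links ferritin and SLC7A11 to the last list. Of its 22 genes with at least 20 UMIs, 7 were at least 2-fold higher in MDAMB468 and 4 in CAL51 (median log2 difference 0.10). GPX4, the peroxidase that repairs lipid peroxides, was abundant in both and 1.30-fold higher in CAL51 (1755 and 6742 UMIs, interval 1.24 to 1.37). SCD, which makes monounsaturated fatty acids, was 3.71-fold higher in CAL51 (interval 3.42 to 4.02), FANCD2 3.50-fold (interval 2.97 to 4.16) and the mitochondrial channel VDAC3 2.30-fold (interval 2.10 to 2.52). TFAP2C, a transcription factor, had 442 and 0 UMIs (at least 434-fold higher in MDAMB468, with 3 UMIs in the shared barcodes), PROM2, a membrane protein linked to ferritin export, had 68 and 0 (at least 66.8-fold), and SAT1, a polyamine acetyltransferase, had 8374 and 7135 (3.46-fold, interval 3.35 to 3.57).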

How the data were processed

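The deposited matrix holds UMI counts per Ensembl gene and barcode, with no normalisation visible in the values, as found on the file itself. STARsolo is named per the submitters' processing notes; for its version and settings, the genome build, the annotation, the use of strand and multimapping reads, details were not given in the sources used here. Gene symbols were looked up by identifier (30730 of 30796 identifiers matched) and positions came from GENCODE release 29 on GRCh38 (29416 matched). Barcode prefixes assigned each barcode to its line.

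UMIs were summed per line and scaled to CPM. Differences are log2(CPM + 1), MDAMB468 minus CAL51, which shrinks differences at low counts. Intervals are exact Poisson for levels, exact conditional for ratios and exact (Clopper-Pearson) for shares. They cover counting error only. A gene at 0 in a library was set against a floor of 3 counts there. TMM factors came from edgeR 4.0.16 in R 4.3.3; all else used Python 3.11.15 with numpy 2.4.6, scipy 1.17.1 and pandas 2.3.3. Values per cell are means over 20 seeded thinnings. Doublets were not removed. The code was tested on simulated data.

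The members and the 6 lists were chosen with earlier results of these data known. Named genes are the 10 members, NFE2L2, KEAP1, BACH1, CUL3, IREB2, ACO1, NCOA4, GPX4 and GCLC, the 3 highest and 3 lowest differences of each list among genes with at least 20 UMIs, and the 5 genes most like each member with a mean of at least 0.5 UMIs per cell; 1 gene that this rule names is not reported here. Other genes named, the FTL neighbours, the groups of cells by FTH1 and the shared barcodes were picked out after values were seen.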

Additional observations from a re-analysis of the deposited data

Results flagged for a closer look

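The CAL51 copies of the 31 barcodes found under both line names entered no comparison above, and 4 members stood there above the MDAMB468 barcodes of the same sequence, beyond the counting intervals. FTL was at 2366 CPM in the CAL51 copies (320 UMIs, interval 2114 to 2640) against 170 CPM in their MDAMB468 partners (interval 153 to 188), and so between the levels of the 2 lines, 173.6 and 4196 CPM. FTH1 was at 6551 CPM (interval 6127 to 6997) against 5038 CPM (interval 4945 to 5134). Among barcodes of 2500 to 5000 UMIs, a range that holds the median of the copies (3638 UMIs), FTH1 was at 7190 CPM in MDAMB468 and 6113 CPM in CAL51, so the copies lay between the lines there. NQO1 was at 488 CPM (interval 377 to 621) against 323 CPM (interval 300 to 348), and TXNRD1 at 185 CPM (interval 120 to 273) against 94.4 CPM (interval 82.0 to 108). Among barcodes of 2500 to 5000 UMIs, NQO1 was at 365 CPM in MDAMB468 and 451 CPM in CAL51, and TXNRD1 at 151 and 252 CPM. At that depth the TXNRD1 level of MDAMB468 thus lay inside the interval of the copies. TXN lay below the partners, at 584 CPM (interval 462 to 728) against 791 CPM (interval 754 to 829). GSTP1, nearly absent from MDAMB468, was at 2292 CPM in the copies and 1.38 CPM in the partners. Where the RNA of these copies came from was not tested.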

How the results depend on the processing

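No paired analysis was possible because each line has 1 library and no replicate numbers. The signs of FTL, HMOX1, NQO1, GCLM, TXNRD1, SLC7A11 and TXN held in 13 of 13 settings; those of FTH1 and SRXN1 held in 11 and that of TFRC in 12. The median log2 difference of all genes was -0.13, and -0.24 with TMM, -0.25 with the median of ratios and -0.04 without mitochondrial and ribosomal protein genes. Members past 2-fold toward MDAMB468 and CAL51 were 2 and 1 in barcodes of 2500 to 5000 UMIs and 0 and 1 in those of 5000 to 10000, and a 1.5-fold limit gave 2 toward MDAMB468. With no filter on low counts, 62.6% of all genes passed 2-fold. A pseudocount of 10 CPM left 2 iron genes toward MDAMB468 and 1 toward CAL51, 0 NRF2 regulators and 4 ferroptosis genes toward MDAMB468, and 3 glutathione and 6 thioredoxin genes toward CAL51. TMM and the median of ratios each gave 5 NRF2 regulators toward CAL51. The heavy-chain share of MDAMB468 was 97.6% and 97.7% in the bins of 2500 to 5000 and 5000 to 10000 UMIs. In CAL51 it was 57.0% and 56.5% there, 54.9% above 20000 and 55.2% as a mean over cells. At 5000 UMIs per cell, r of FTL and FTH1 was 0.065 in MDAMB468 and 0.49 in CAL51, where 10 rather than 5 of 45 pairs exceeded 0.1, and the Fano factor of FTH1 was 4.14 and 8.94. Spearman's rho of FTL and FTH1 at 2500 UMIs was 0.37 in CAL51. A Fano factor above 1 rises with the thinning depth by construction, because its excess over 1 grows with the mean. Except there, and where a higher pseudocount or a lower limit sets the count by construction, the cause was not tested. Depth limits HMOX1, SRXN1 and SLC7A11 most, with 81, 17 and 44 UMIs in MDAMB468.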
